A study of Homo sapiens with 4 samples.

Results

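A3B (APOBEC3B) ChIP-seq peaks of human chromosome 1 were compared between its short arm and its long arm in OMM2.3 and 92.1, established cell lines of uveal melanoma. A peak was assigned to the short arm when it ended below position 123400000 of GRCh38, and to the long arm when it started at or above that position. In OMM2.3, 6890 of 56167 peaks (12.3%) lay on chromosome 1, with 3997 on the short arm and 2893 on the long arm. In 92.1, 12210 of 136678 peaks (8.93%) lay there, with 3358 on the short arm and 8852 on the long arm. No peak (0 in either list) spanned the boundary. Together the lists held 19100 chromosome 1 peaks of 192845.

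Each line had 1 library made with an anti-A3B antibody (Abcam) and 1 made with normal rabbit IgG, and the peaks of a line were called against its own IgG library. Cells of both lines were grown in RPMI1640 with 10% fetal bovine serum, and no treatment or gene alteration was given in the labels. With 1 library per group there was no replicate, so the values below compare libraries, and no p-value is given. Intervals are 95% intervals of the counts and cover counting error only. The read depth of the libraries was unknown here, and the fragment numbers behind single peaks are given below.

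A3B is a nuclear cytidine deaminase that converts cytosine to uracil in single-stranded DNA and prefers a cytosine that follows a thymine. R-loops, in which RNA pairs with one DNA strand and leaves the other unpaired, are a possible source of such single strands. Loss of the short arm of chromosome 1 recurs in uveal melanoma, and the long arm carries several genes that are gained in other cancers. The arms meet at a centromere built of alpha-satellite DNA, next to which the long arm holds a large block of heterochromatin that is mostly unresolved in this assembly.

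The strongest peaks of both arms lay in repeated sequence, and the windows of 201 bp around their summits are printed to show what they contain. All are on the plus strand of GRCh38 and none lay in a protein-coding gene. The first pair holds the strongest OMM2.3 peak of each arm, both in centromeric repeats, and capitals mark the run of 92 bases that they share.
OMM2.3 short arm, chr1:122980090-122980290: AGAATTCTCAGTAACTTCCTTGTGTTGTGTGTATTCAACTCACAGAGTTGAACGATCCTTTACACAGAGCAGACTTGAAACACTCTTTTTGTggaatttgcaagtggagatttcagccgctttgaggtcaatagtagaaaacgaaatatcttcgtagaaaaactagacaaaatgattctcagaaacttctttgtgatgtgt
OMM2.3 long arm, chr1:124659906-124660106: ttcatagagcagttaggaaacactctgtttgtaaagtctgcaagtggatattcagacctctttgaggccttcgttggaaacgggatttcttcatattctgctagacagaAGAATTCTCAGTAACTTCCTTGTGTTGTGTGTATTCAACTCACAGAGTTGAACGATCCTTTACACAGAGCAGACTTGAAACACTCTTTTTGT
The short-arm peak reached a −log10 p of 7.53, a fold of 4.96 over IgG, and 16 fragments over a background of 2. The long-arm peak reached a −log10 p of 15.3, a fold of 3.38 and 69 fragments over a background of 17. Fragments of OMM2.3 are given before a scaling by 0.867, and the fold was taken after it. The 32-mers of these windows had median copy numbers of 3589 and 5544 in the reference genome, so such sequence is far from unique to either arm.

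The strongest 92.1 peak of the short arm, at 629644 to 630038, lay in the exon of MTND2P28, a pseudogene copied from the mitochondrial gene ND2. Capitals mark the positions at which the window differs from the mitochondrial genome of the same reference, to which 199 of 201 bases matched.
92.1 short arm, chr1:629748-629948: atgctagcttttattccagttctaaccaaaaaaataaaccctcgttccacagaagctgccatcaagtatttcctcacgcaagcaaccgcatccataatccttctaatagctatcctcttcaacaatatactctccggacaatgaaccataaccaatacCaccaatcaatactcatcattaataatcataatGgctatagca
Its −log10 p was 68.4 and its fold over IgG 10.8, with 97 fragments over a background of 8.09. The next 2 short-arm peaks of 92.1 lay in the neighbouring mitochondrial pseudogenes MTATP6P1 and MTCO1P12, with −log10 p of 59.4 and 9.47. OMM2.3 had no peak past a q of 0.05 at these pseudogenes.

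On the long arm the strongest 92.1 peak and the strongest pair of overlapping peaks of both lines lay between 143185138 and 143264735, in a pentamer repeat at the edge of the unresolved heterochromatin. Capitals mark GGAAT or its reverse complement ATTCC.
92.1 long arm, chr1:143213105-143213305: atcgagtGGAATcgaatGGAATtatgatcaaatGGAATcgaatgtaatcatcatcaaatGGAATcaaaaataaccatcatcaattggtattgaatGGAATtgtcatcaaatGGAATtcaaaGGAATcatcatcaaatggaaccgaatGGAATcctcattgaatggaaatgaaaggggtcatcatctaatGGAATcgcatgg
Both lines, long arm, chr1:143249803-143250003: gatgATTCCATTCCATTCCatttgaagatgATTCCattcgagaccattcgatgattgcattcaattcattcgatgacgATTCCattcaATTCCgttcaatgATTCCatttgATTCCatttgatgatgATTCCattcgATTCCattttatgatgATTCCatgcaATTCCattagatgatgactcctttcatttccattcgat
The first window held 9 copies of the pentamer and the second held 12. The 92.1 peak reached a −log10 p of 32.8 with a fold over IgG of 1.92, as 409 fragments stood over a background of 212.1. In the shared pair OMM2.3 had 317 fragments, before scaling by 0.867, over 198.001. There 92.1, with a scaling of 1, had 245 over 170.797. The fold enrichments were 1.39 and 1.43. Windows of 201 bp with at least 5 pentamers, on either strand and counting overlaps, made up 0.0194% of the short arm and 0.154% of the long arm. Among long-arm peaks they made up 0.380% in OMM2.3 (11 of 2893) and 0.328% in 92.1 (29 of 8852). On the short arm they made up 0.0250% (1 of 3997) and 0.0298% (1 of 3358). The share was above the background on the long arm, and 1 peak per line is too few to judge the short arm.

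For contrast, the strongest long-arm peak of 92.1 in single-copy sequence, 11.1 kb from SUSD4, and the strongest shared pair in single-copy sequence, 32.3 kb from ANP32E, are printed with TC and its reverse complement GA in capitals, the dinucleotide whose cytosine A3B prefers. Both were intergenic.
92.1 long arm, chr1:223375177-223375377: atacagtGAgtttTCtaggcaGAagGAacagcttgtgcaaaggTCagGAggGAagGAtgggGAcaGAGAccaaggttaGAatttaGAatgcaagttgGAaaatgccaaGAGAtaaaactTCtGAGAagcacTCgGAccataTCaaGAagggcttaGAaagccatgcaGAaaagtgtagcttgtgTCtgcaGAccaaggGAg
Both lines, long arm, chr1:150203706-150203906: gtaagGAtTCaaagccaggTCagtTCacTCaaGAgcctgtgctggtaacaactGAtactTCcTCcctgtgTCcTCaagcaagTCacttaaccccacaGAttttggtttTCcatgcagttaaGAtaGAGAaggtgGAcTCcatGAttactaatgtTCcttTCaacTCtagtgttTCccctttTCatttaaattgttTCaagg
The first window held 28 of these dinucleotides and lay under a peak of 9 fragments over a background of 0.885, with a −log10 p of 7.44. The second held 26 and rested on 9 fragments in OMM2.3 and 6 in 92.1. The dinucleotides were not counted over other windows of the arm, so neither number is read as an enrichment.

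The arms differed in opposite ways in the lines. Outside assembly gaps the short arm held 123.039 Mb and the long arm 107.442 Mb. In OMM2.3 the short arm carried 32.5 peaks per Mb (31.5 to 33.5) and the long arm 26.9 (26.0 to 27.9), a log2 ratio of 0.27 (0.20 to 0.34), or 1.21-fold more on the short arm. In 92.1 the short arm carried 27.3 peaks per Mb (26.4 to 28.2) and the long arm 82.4 (80.7 to 84.1), a log2 ratio of −1.59 (−1.65 to −1.54), or 3.02-fold more on the long arm (2.90 to 3.14). The log2 ratio of 92.1 minus that of OMM2.3 was −1.86 (−1.95 to −1.78). In windows of 38 to 44% GC, a range that both arms cover, the log2 ratios were 0.13 and −1.63. Among peaks with a p of at most 1e-05, of which OMM2.3 had only 12 on the short arm and 22 on the long arm, its ratio turned to −1.07.

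The 92.1 list was 2.44 times as dense as that of OMM2.3 over the autosomes, so which arm the contrast lay on depends on the scale. In peaks per Mb the short-arm density of 92.1 was 0.840 times that of OMM2.3, and its long-arm density was 3.06 times as high (2.93 to 3.19). Over all 34 arms of the 17 autosomes with a sequenced short arm, the long arm of chromosome 1 ranked 4 from the highest in 92.1 and 14 in OMM2.3. The short arm ranked 29 in 92.1 and 7 in OMM2.3. The mean density of all autosomes, including those without a sequenced short arm, was 19.98 peaks per Mb in OMM2.3 and 48.8 in 92.1. Against it the short arm stood at 1.63 and 0.559 times, and the long arm at 1.35 and 1.69 times. On this relative scale the short arm was 2.91-fold lower in 92.1 than in OMM2.3 and the long arm 1.25-fold higher, so most of the contrast was then on the short arm.

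**Figure D1:**
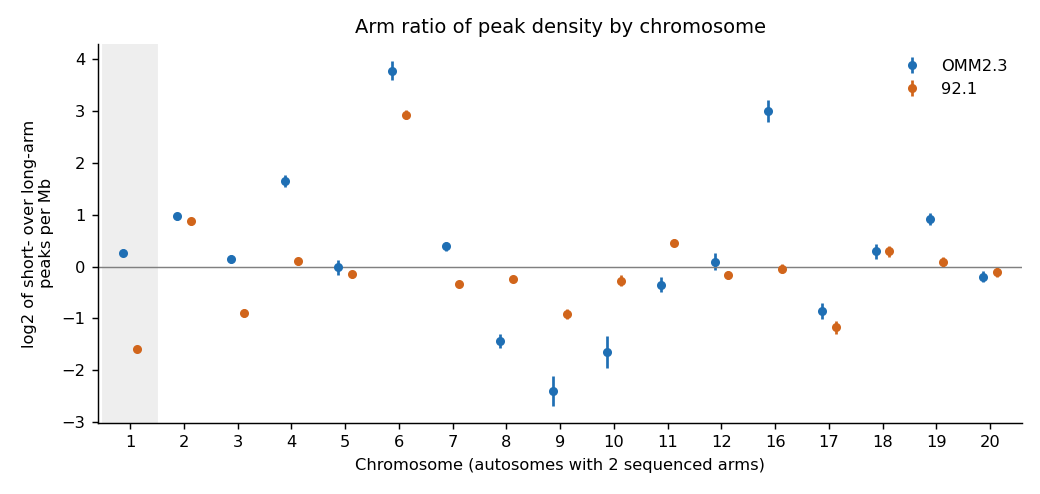
The log2 ratio of short-arm to long-arm peaks per Mb (vertical axis) is plotted for each autosome with 2 sequenced arms (horizontal axis), with points for OMM2.3 in blue and 92.1 in orange and bars for the 95% counting interval. Chromosome 1, shaded, stands at 0.27 in OMM2.3 and at −1.59 in 92.1, the lowest 92.1 value plotted.

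The other 16 autosomes showed how far an arm ratio can range in these libraries. Their log2 ratios ran from −2.39 (chromosome 9) to 3.78 (chromosome 6) in OMM2.3, with a median of 0.12, and from −1.17 (chromosome 17) to 2.93 (chromosome 6) in 92.1, with a median of −0.13. In OMM2.3 chromosome 1 lay in the middle, with 9 chromosomes below and 7 above it. In 92.1 all 16 lay above it. The difference between the lines ran from −3.05 (chromosome 16) to 1.48 (chromosome 9), and 1 chromosome had a lower difference than chromosome 1.

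Windows of 5 Mb were counted from the start of each arm, and 25 on the short arm and 21 on the long arm had at least 50% of their length outside gaps. In 92.1 the short-arm windows ran from 20.2 to 36.1 peaks per Mb with a median of 27.1, and the long-arm windows from 65 to 101.6 with a median of 83.4. All 21 long-arm windows stood above all 25 short-arm windows, and the partly sequenced long-arm windows that were left out, with 45.5, 97.5 and 47.6 peaks per Mb, also stood above them. In OMM2.3 the short-arm windows ran from 19.8 to 51.1 with a median of 32.2, and the long-arm windows from 10.4 to 39.0 with a median of 27.4. The OMM2.3 ranges overlapped, and 6 short-arm windows exceeded every long-arm window.

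**Figure D2:**
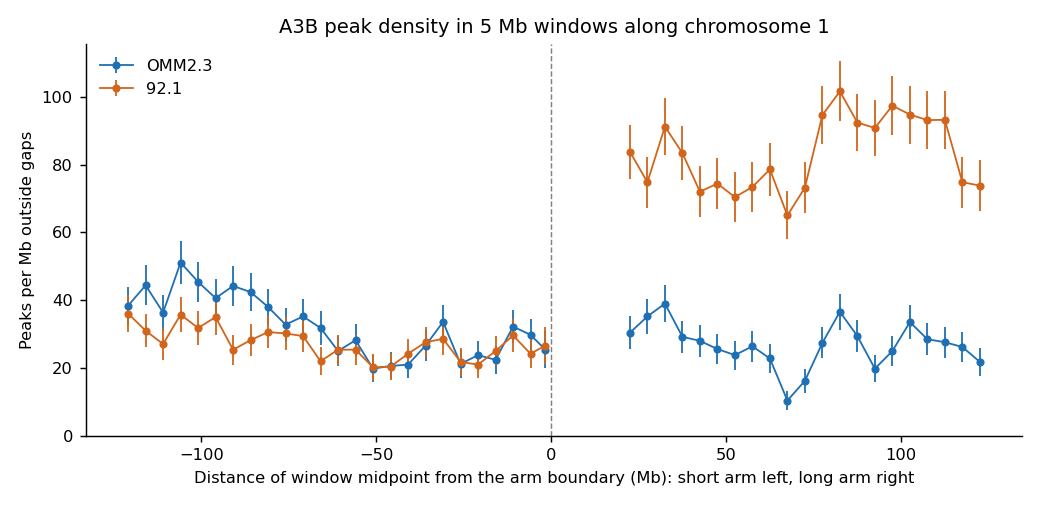
Peaks per Mb outside gaps (vertical axis) in 5 Mb windows are plotted against the distance of the window midpoint from the arm boundary in Mb (horizontal axis; short arm at negative distances), with OMM2.3 in blue, 92.1 in orange and bars for the 95% counting interval of each count. On the short arm both lines lie between 19.8 and 51.1 peaks per Mb, with OMM2.3 higher in 18 of 25 windows, and on the long arm every 92.1 window is at or above 65 and every OMM2.3 window at or below 39.0.

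Within the short arm the densities of the lines differed more up to 45 Mb than beyond it. They differed little in the first 5 Mb, with 38.4 peaks per Mb in OMM2.3 and 36.1 in 92.1. In the 9 windows up to 45 Mb OMM2.3 had 42.3 peaks per Mb and 92.1 had 31.2, and in the 16 windows beyond it they had 26.9 and 25.1. The fold of 92.1 over OMM2.3 was lowest, at 0.575, between 30 and 35 Mb, where OMM2.3 had 44.2 peaks per Mb and 92.1 had 25.4. It was highest, at 1.15, between 80 and 85 Mb. Of the 25 windows 18 were denser in OMM2.3 and 7 in 92.1. Both lines had their lowest short-arm density between 70 and 75 Mb, and their highest at 15 to 20 Mb in OMM2.3 and in the first 5 Mb in 92.1.

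On the long arm all 21 windows were denser in 92.1, by 2.13-fold between 148.4 and 153.4 Mb up to 6.25-fold between 188.4 and 193.4 Mb, beside 2.44-fold over the autosomes. The window from 188.4 to 193.4 Mb was the lowest of the arm in both lines, with 10.4 peaks per Mb in OMM2.3 and 65 in 92.1. In 92.1 the 11 windows from 143.4 to 198.4 Mb had 76.4 peaks per Mb, the 8 windows from 198.4 to 238.4 Mb had 94.7, and the last 2 had 74.3. OMM2.3 had 26.1, 28.5 and 24 in the same blocks. Each of the 8 windows of the middle block lay between 90.8 and 101.6 in 92.1, and the largest 92.1 step between neighbouring long-arm windows, from 73.2 to 94.6, stood at its start. The limits of these blocks and of the short-arm split were chosen after the window values were seen. At the same place OMM2.3 rose from 16.2 to 27.4, while its largest step on the chromosome by fold was the fall from 22.8 to 10.4 at 188.4 Mb.

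The window densities of the lines rose and fell together within an arm and not across arms. Spearman's rho between their densities was 0.825 over the 25 short-arm windows, 0.529 over the 21 long-arm windows and 0.109 over all 46, and Pearson's r was 0.776, 0.542 and −0.183. These are descriptions, as windows of one chromosome are not independent and share base composition. The density of OMM2.3 followed the GC content of the window closely on both arms, with rho of 0.928 and 0.894. In 92.1 rho was 0.843 on the short arm and 0.570 on the long arm. The ratio of the 90th to the 10th percentile of all windows was 1.996 in OMM2.3 and 4.03 in 92.1, and within an arm 92.1 was the more even line, with 1.58 and 1.32 against 2.10 and 1.78.

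**Figure D3:**
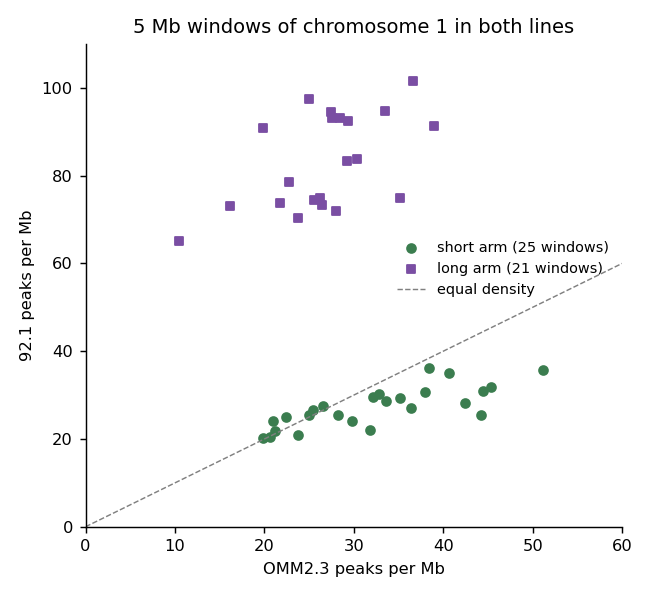
Each point is one 5 Mb window, with its OMM2.3 density on the horizontal axis and its 92.1 density on the vertical axis, both in peaks per Mb, as green circles for the short arm (25) and purple squares for the long arm (21). The short-arm windows lie at 0.575 to 1.15 times the OMM2.3 density, 18 of them below the dashed line of equal peaks per Mb, and the long-arm windows at 2.13 to 6.25 times.

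The background that IgG set for the peaks moved with the arm contrast of 92.1. MACS2 takes as background the larger of the local IgG level and a genome-wide mean, so a peak at the lowest background, 1.053 fragments in OMM2.3 and 0.877 in 92.1, lies where IgG was not above that mean. In 92.1, 70.8% of short-arm peaks and 16.8% of long-arm peaks were at the lowest background, and the median background was 0.877 on the short arm and 1.08 on the long arm. In OMM2.3 the shares were 30.6% and 36.6%, and the median was 1.125 on both arms. Thus the long arm of 92.1 had both more A3B peaks and more local IgG signal than its short arm. The background was read only under peaks, the copy number of the arms was not measured, and the part of either in the contrast was not tested.

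**Figure D4:**
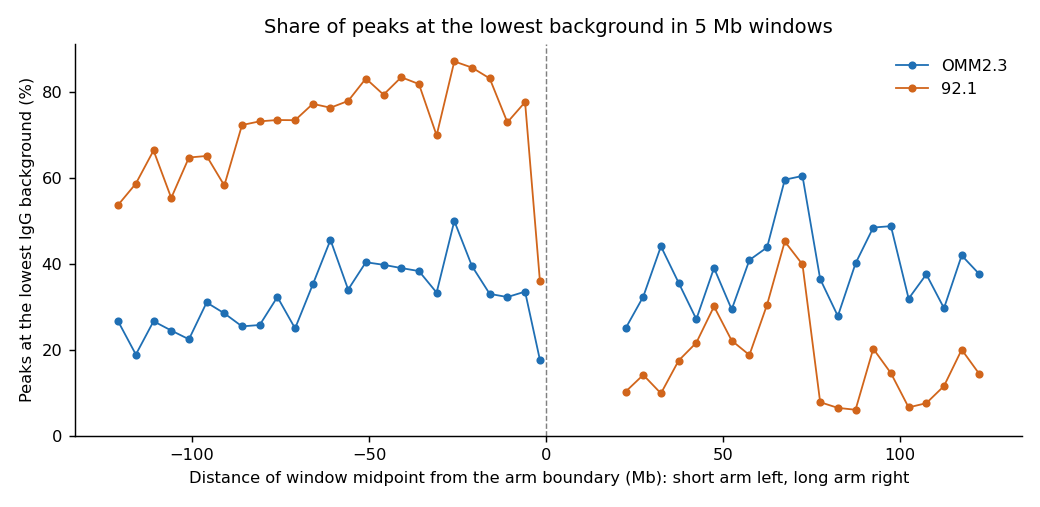
The percentage of peaks at the lowest IgG background (vertical axis) is plotted for the same 5 Mb windows against the distance from the arm boundary in Mb (horizontal axis), with OMM2.3 in blue and 92.1 in orange. In 92.1 it runs from 35.96 to 87.2% on the short arm and from 6.06 to 45.2% on the long arm, and in OMM2.3 from 17.6 to 50% and from 25 to 60.5%.

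The share at the lowest background varied inversely with density along the chromosome. In 92.1 it fell from 39.9% in the window before 198.4 Mb to 7.82% in the window after it, where the density rose. Over windows rho between this share and density was −0.749 on the short arm and −0.783 on the long arm in 92.1, and −0.796 and −0.578 in OMM2.3.

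Peaks of both arms were small. On either arm the median was 6 fragments per peak in OMM2.3 and 4 in 92.1, and the minimum was 4 and 3. Median fold enrichment was 2.60 on both arms of OMM2.3, and 2.66 on the short arm and 2.58 on the long arm of 92.1. Peaks with 8 or more fragments made up 6.76% and 6.77% of the arms' peaks in OMM2.3, and 0.953% and 1.36% in 92.1. Peaks with 6 or more fragments made up 56.2% and 56.0% in OMM2.3, and 7.09% on the short arm and 13.7% on the long arm of 92.1, where peaks of 3 fragments made up 18.05% and 12.04%. The long arm of 92.1 thus had more peaks and a larger share with 6 or more fragments, although the median did not show it. Its median background was also higher, at 1.08 against 0.877, and a peak over a higher background needs more fragments to pass the same p. Its median −log10 p was 2.55 against 2.68 on the short arm, so these shares are not read as stronger peaks. The part of the background in them was not tested.

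Few chromosome 1 peaks passed a q of 0.05. In OMM2.3 there were 7 on the short arm and 11 on the long arm, shares of 0.175% and 0.380%, against 0.449% of the whole list. In 92.1 there were 6 and 36, shares of 0.179% and 0.407%, against 0.166% of the whole list. All 18 of OMM2.3 lay in repeated sequence, 14 of them within 3 Mb of the arm boundary. In 92.1 the short arm had 4 at the mitochondrial pseudogenes and 2 near the boundary, and the long arm had 11 near the boundary and 15 within 79.6 kb at the pentamer repeat. The remaining 10 were scattered single-copy peaks with 8 to 10 fragments, all on the long arm. They lay in HHIPL2, IRF2BP2, NUP210L, CTSS, ELK4 and CEP350, named after their values were seen, and 4 lay between genes. None of the 10 met an OMM2.3 peak. The box bound by the centromere protein CENP-B, searched by its 9 fixed bases within 15 positions on both strands, was in 2 of 7 and 3 of 11 of these OMM2.3 windows and in 1 of 6 and 5 of 36 of those of 92.1, against 0.528% of all short-arm and 0.638% of all long-arm windows of 201 bp. Over all peaks of an arm and line the share with a box ran from 0.350% to 0.933%.

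Few positions were shared. Of the OMM2.3 peaks, 57 of 3997 on the short arm (1.43%, 1.10 to 1.84) and 162 of 2893 on the long arm (5.60%, 4.82 to 6.50) met a 92.1 peak by at least 1 bp. The 92.1 peaks covered 0.749% of the short arm and 2.49% of the long arm, so the covered share rose between the arms along with the shared one. Of the 92.1 peaks, 57 of 3358 (1.70%) and 161 of 8852 (1.82%) met an OMM2.3 peak, with OMM2.3 peaks covering 0.960% and 0.792%. Coverage is a share of single bases, and a whole peak meets another by 1 bp more often than a single base does. The covered share is thus lower than the sharing that density alone would give, and no excess of sharing is read from it. Repeated sequence held 31.6% and 31.5% of the shared OMM2.3 peaks and 18.6% and 23.1% of the others. Besides the centromeric pair, the strongest short-arm pairs lay in introns of MRTO4, a ribosome assembly factor, and of PRKAA2, a catalytic subunit of the AMP-activated kinase, each with 5 fragments in 92.1.

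Genes followed their arm. In OMM2.3, 671 of 1078 protein-coding genes of the short arm (62.2%, 59.3 to 65.1) and 511 of 983 of the long arm (52.0%, 48.9 to 55.1) held a peak. In 92.1 the counts were 612 (56.8%, 53.8 to 59.7) and 711 (72.3%, 69.5 to 75.0). Per Mb of gene body there were 33.3 and 27.2 peaks in OMM2.3 and 28.3 and 86.4 in 92.1, close to the densities of the whole arms. Summits within 3 kb of a transcription start made up 22.2% and 23.4% in OMM2.3 and 23.9% and 22.02% in 92.1, or 1.08, 1.14, 1.17 and 1.08 times the share of the arm in that class.

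Of 14 short-arm tumour suppressor candidates, 11 held a peak in OMM2.3 and 12 in 92.1, with 91 and 87 peaks in all, or 27.8 and 26.6 per Mb. The shares over all short-arm genes were 62.2% and 56.8%, but the candidates are longer, with a median of 86.3 kb against 27.6 kb. CAMTA1, a calmodulin-binding transcription activator (ENSG00000171735.21, chromosome 1, 6785454 to 7769706, plus strand), had 48 peaks in OMM2.3 and 34 in 92.1. FAF1, a Fas-associated factor, had 6 and 15, and NEGR1, a neuronal adhesion molecule, had 12 and 8. EPHA2, an ephrin receptor, had 5 and 3, and KIF1B, a kinesin motor, had 4 and 5. The totals of the list were thus similar in both lines, but CAMTA1 alone held 48 of the 91 and 34 of the 87 peaks. The members went either way, with 6 higher in 92.1 and 3 in OMM2.3. ERRFI1, an inhibitor of the EGF receptor, and CDKN2C, an inhibitor of CDK4 and CDK6, had 0 in both lists.

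Of 14 long-arm genes that are gained in cancers, 9 held a peak in OMM2.3 and 11 in 92.1, and the peaks numbered 20 and 79, or 18.4 and 72.8 per Mb. The shares over all long-arm genes were 52.0% and 72.3%, at a median length of 21.3 kb against 54.0 kb in the list. DDR2, a collagen receptor kinase (ENSG00000162733.19, 162631373 to 162787405, plus strand), had 2 peaks in OMM2.3 and 16 in 92.1. BCL9, a coactivator of beta-catenin, had 4 and 11. The tyrosine kinase ABL2 had 2 and 9. All 11 with a peak in 92.1 had more peaks there than in OMM2.3. MCL1, a survival factor of the BCL2 family, CKS1B, a subunit of cyclin-dependent kinases, and MUC1, a mucin, had 0 in both lists, and they span 4.599 to 18.8 kb.

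Replication and DNA repair genes followed their arm in peak number. The 14 on the short arm had 24 peaks in OMM2.3 and 18 in 92.1, and the 9 on the long arm had 12 and 41. A peak was held by 11 and 10 of the 14, against 62.2% and 56.8% of all short-arm genes. On the long arm 5 and 8 of the 9 held one, against 52.0% and 72.3% of all genes. Median lengths were 29.9 kb on the short arm and 48.6 kb on the long arm, against 27.6 and 21.3 kb over all genes. CDC73, a subunit of the PAF1 elongation complex, had 3 and 11, and DTL, a receptor of the CUL4 ubiquitin ligase that acts in S phase, had 2 and 9. FH, the fumarate hydratase, had 0 and 5. PARP1, the sensor of DNA strand breaks, went against its arm with 5 and 2. The histone deacetylase HDAC1 on the short arm had 5 and 1. USP1 and GADD45A on the short arm and NEK2 on the long arm had 0 in both lists.

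Genes of RNA processing were few, with 9 and 10 peaks in the 7 short-arm members and 4 and 8 in the 3 long-arm members. Of the 7, 6 held a peak in OMM2.3 and 4 in 92.1, and of the 3, 2 and 3 did. The shares over all genes were 62.2% and 56.8% on the short arm and 52.0% and 72.3% on the long arm. The helicase DHX9, which unwinds R-loops and was counted in both lists, had 1 peak in OMM2.3 and 4 in 92.1. THRAP3 had 2 and 5, SRSF10 had 0 and 3, PRPF3 had 3 and 1, and HNRNPU had 0 and 3, all of them factors of splicing. Counts of this size carry wide counting error and no order is read from them.

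G protein genes were counted because activating mutations of G alpha subunits drive uveal melanoma. The 5 short-arm members had 18 and 9 peaks and the 12 long-arm members, mostly RGS genes that shorten G protein signals, had 32 and 97. A peak was held by 3 of the 5 in each line, against 62.2% and 56.8% of all short-arm genes. On the long arm 7 and 10 of the 12 held one, against 52.0% and 72.3% of all genes. GNB1, a beta subunit, had 13 peaks in OMM2.3 and 3 in 92.1, or 121.5 and 28.0 per Mb. RGS7 (ENSG00000182901.18, 240767636 to 241357374, minus strand) had 15 and 44, RGS5 had 3 and 17, and RGSL1 had 2 and 10. GNG5, GNAT2 and RGS2 had 0 in both lists. APOBEC4, the only gene of the deaminase family counted here, had 0 and 1.

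Genes of at least 500 kb gave the clearest view of single loci, since each holds many peaks. The 15 on the short arm had 347 peaks in OMM2.3 and 273 in 92.1, and 12 of them had more in OMM2.3. The 10 on the long arm had 124 and 504, and all 10 had more in 92.1. SMYD3, a lysine methyltransferase (245749342 to 246507312, minus strand), had 15 and 67, and RABGAP1L, a regulator of Rab proteins, had 13 and 66. DAB1, an adaptor of reelin signalling on the short arm, had 60 in OMM2.3 and 31 in 92.1. In 92.1 the lowest long-arm gene, KIF26B with 43.3 peaks per Mb, was above the highest short-arm gene, CAMTA1 with 34.5. KIF26B was named for this after its value was seen.

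**Figure D5:**
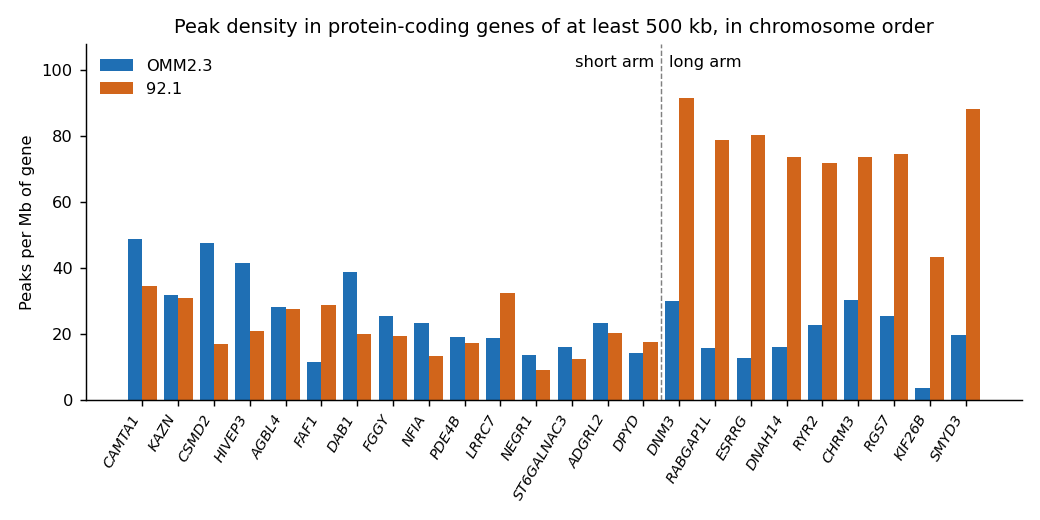
Bars give the peaks per Mb of gene (vertical axis, from 0) in OMM2.3 (blue) and 92.1 (orange) for 24 of the 25 protein-coding genes of at least 500 kb, in chromosome order (horizontal axis), with a dashed line between the arms. All 9 long-arm genes drawn are higher in 92.1 and 12 of the 15 short-arm genes are higher in OMM2.3.

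Peak summits were richer in GC than their arm, and more so in OMM2.3. Mean GC of the 201 bp around the summit was 47.2% on the short arm and 45.6% on the long arm in OMM2.3, with SDs over peaks of 8.99 and 8.48, and 44.7% and 42.0% in 92.1, with SDs of 9.83 and 8.91. The arms themselves had 42.5% and 40.9%. The excess was thus 4.70 and 4.73 percentage points in OMM2.3 and 2.21 and 1.12 in 92.1. Of the cytosines at summits, 26.2% and 27.5% followed a thymine in OMM2.3 and 27.6% and 29.1% in 92.1, against 28.3% and 29.4% over the arms. A cytosine at a summit was therefore not more often preceded by a thymine than one of the arm, on either arm or in either line. This is a share of cytosines, which were themselves more frequent at the GC-richer summits. The frequency of the dinucleotide per base was not compared.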

How the data were processed

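A3B and IgG ChIP-seq was done in OMM2.3 and 92.1, with 1 library per group and line. The authors fixed cells with formaldehyde, sequenced paired ends, checked reads with FastQC (0.11.9), aligned them to GRCh38 with Bowtie2 (2.2.5), took out PCR duplicates with Sambamba, and used MACS2 (2.2.7.1) to call peaks at a p of 0.05 against the IgG library of the line. Versions are from the submitters' processing notes. Mapping quality filters, read length and effective genome size were not given in the sources used here. The deposited score, the deposited fold enrichment ratio over the IgG background with 1 added to both terms, and, for each peak, the −log10 q-value and −log10 p-value as deposited were used as the authors made them. The 2 IgG libraries entered through these values.

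From these lists, fragments and background at each summit were recovered by the arithmetic of MACS2, which gave whole fragments for 100% of chromosome 1 peaks within a tolerance of 0.002. The A3B fragments were scaled by 0.867 in OMM2.3 and by 1 in 92.1. Fragment numbers are reported before this scaling, and fold enrichment compares the scaled fragments with the background. Densities used sequence outside gaps. A sequence was called repeated when at least 50% of its 32-mers within 100 bp of the summit occurred more than once in the genome. Genes were from GENCODE version 44. Analyses used Python 3.11.15, numpy 2.4.6, scipy 1.17.1 and pandas 2.3.3, and were tested on simulated data. No test was possible with 1 library per group. Ratios have Poisson intervals and shares Wilson intervals, at 95%. Named peaks were the strongest per arm and line and the strongest overlapping pairs. Named genes were the up to 4 members of each list with most peaks in either line, ties kept, and those with 0 in both, except that some are not reported here. The members and lists were chosen with earlier results of these data known.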

Additional observations from a re-analysis of the deposited data

Results flagged for a closer look

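The short arm was the denser arm in OMM2.3 and the long arm the denser arm in 92.1. The log2 ratio of short-arm to long-arm density was 0.27 in OMM2.3 and −1.59 in 92.1, and their difference of −1.86 drew attention because the single library of each line moved in the opposite direction from the other. No test of this difference was made, since each line had 1 A3B library.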

How the results depend on the processing

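Across 77 recomputed values, 51 stayed close to the reported one, 21 moved and 5 changed direction. The log2 arm ratio of OMM2.3 (0.27) was −1.07 at a p of at most 1e-05 and −0.85 at a q of at most 0.05, 0.49 over full arm lengths, 0.36 in single-copy sequence, 0.17 among equal numbers of strongest peaks, 0.13 in windows of 38 to 44% GC and 0.011 at the lowest background. That of 92.1 (−1.59) was, in the same order without the single-copy and GC values, −2.08, −2.78, −1.37, −1.44 and 0.48, and it was −1.74 in peak bases per Mb and −1.21 at a fold enrichment of at least 3. Their difference (−1.86) was −1.01 at a p of at most 1e-05, −2.01 in peak bases, −1.61 among the strongest peaks, −1.76 in windows of like GC, −1.43 at a fold of at least 3 and 0.47 at the lowest background. The GC, fold and lowest-background alternatives were chosen after seeing the data. The lowest-background values divide the peaks where IgG was low by the whole arm, as the length of each arm with low IgG was not measured. They are therefore not densities over the sequence the peaks were drawn from, and what sets their direction was not tested. The 12 short-arm and 22 long-arm OMM2.3 peaks at a p of at most 1e-05 limit the first value. In 1 Mb windows the short-arm rho between lines was 0.477. Requiring an overlap of at least 50% of the shorter peak moved the long minus short difference in shared OMM2.3 peaks from 4.17 to 2.53 points. The log2 ratio of mean background, short over long, was 0.022 in OMM2.3 (against −0.31) and −0.27 in 92.1 (against −0.78) with the median of window means. Counting genes within 1 kb of a transcription start gave a long minus short difference in genes with a peak of −5.03 points in OMM2.3 (against −10.3) and 20.4 in 92.1 (against 15.6). The cause of these moves was not tested. No paired analysis was possible because there was 1 library in each group.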
